A study of Mus musculus with 36 samples.

Results

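Mouse lung holds a small amount of cardiac muscle, and 10 genes that such muscle uses were followed in the left lung of 36 male mice. The genes were Myh6, Myl4, Myl7, Tnnt2, Tnni3, Actc1, Nppa, Ryr2, Sln and Pln, and every probe set that the platform annotation pairs with a single symbol among them was taken. That rule gave 18 of the 45037 probe sets tested and 10 of the 18193 genes named by a single symbol. A further 2 probe sets are named for both Myh7 and Myh6 and were left out. The arrays were Affymetrix Mouse Genome 430 2.0 arrays, each with the RNA of 1 mouse, and each mouse was 7 to 13 weeks old. WT mice were B6129SF1/J, an F1 hybrid, while Notch3-/- mice carried the Notch3tm1Grid allele and Notch4-/- mice the Notch4tm1Grid allele, each on a mixed stock other than that hybrid, so that a difference of strain background and the loss of the receptor cannot be told apart. Each genotype had 1 group in filtered air and 1 group each after 6 hr, 24 hr and 48 hr of 0.3 ppm ozone, which makes 12 groups of 3 mice. The 3 ozone groups of a genotype were compared with the same air mice. The labels give no hours in air for these mice, although the paper describes parallel air exposures of equal length. Hours of ozone and time in the chamber thus cannot be told apart. Both alleles are germline and so are not confined to 1 cell type, and the left lung used for RNA was not lavaged.

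In mice, striated muscle of the cardiac type continues from the left atrium along the wall of the pulmonary veins into the lung, and it contracts with the heart. Its force comes from sliding of thick filaments, built from myosin heavy chains (Myh6) and light chains (Myl4 and Myl7, the forms of the atrium), along thin filaments of cardiac actin (Actc1). The troponin complex, with troponin T (Tnnt2) and troponin I (Tnni3), sets when the filaments engage, as calcium leaves the sarcoplasmic reticulum through the ryanodine receptor (Ryr2). Calcium returns through the pump Atp2a2, which phospholamban (Pln) and sarcolipin (Sln, most abundant in atrial muscle) hold back. Nppa encodes atrial natriuretic peptide, a hormone that atrial muscle releases when stretched and that lowers blood pressure. Atrial muscle of the heart uses the same genes.

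RefSeq promoter windows, 300 bases long with 250 bases before and 50 after the annotated start (build GRCm38.p6), were matched for 9 of the 10 genes, in 10 windows. They are shown for Myl7 and Actc1, which hold a CArG box (a motif that serum response factor, a regulator of muscle genes, can bind), and for Nppa, whose levels departed most from those of the other members. Each line gives the 250 bases before the start, 5′ to 3′ on the strand of the gene, with motif matches in capitals.
Myl7 (chr11:5898783-5899032, minus strand): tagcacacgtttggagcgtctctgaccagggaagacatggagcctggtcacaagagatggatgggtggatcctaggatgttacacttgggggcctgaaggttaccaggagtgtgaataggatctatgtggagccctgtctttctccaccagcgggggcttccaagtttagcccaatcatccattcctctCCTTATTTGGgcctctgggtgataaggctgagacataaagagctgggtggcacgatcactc
Actc1 (chr2:114052876-114053125, minus strand): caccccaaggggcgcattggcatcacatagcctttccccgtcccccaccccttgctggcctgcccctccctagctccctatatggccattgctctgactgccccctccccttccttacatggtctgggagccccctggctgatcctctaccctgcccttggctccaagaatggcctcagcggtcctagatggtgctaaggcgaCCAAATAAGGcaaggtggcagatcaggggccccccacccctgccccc
Nppa (chr4:148000472-148000721, plus strand): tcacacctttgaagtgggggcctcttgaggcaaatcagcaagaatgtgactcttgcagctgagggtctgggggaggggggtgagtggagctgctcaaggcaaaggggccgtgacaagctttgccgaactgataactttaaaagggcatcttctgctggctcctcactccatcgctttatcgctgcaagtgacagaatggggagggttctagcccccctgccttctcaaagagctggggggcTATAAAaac
The CArG box began 61 bases before the start of Myl7 and 47 bases before that of Actc1, and a CArG box was found in 2 of the 10 windows and in 1.63% of all 32851 windows. The capitals of Nppa mark the TATA box (TATAAA), which lay 9 bases before the annotated start and was found in 4 of the 10 windows (Actc1, Myh6, Nppa and Pln) and in 13.6% of all windows. The GATA motif AGATAA was found in 2 windows (Pln and 1 of the 2 of Tnnt2) against 11.2% of all windows, and the MEF2 motif in 0 against 3.69%. Both strands of the whole windows were searched, the bases after the start included, and a match describes the letters only.

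Every value is the log2 signal of a probe set relative to its median over the 36 arrays, so 0 is the middle mouse and 1 unit is a 2-fold step. Brightness and distance from background cannot be read from such centred values. Where genes are set against each other below, each value is relative to the median of its own probe set. Notch3 (1421965_s_at) ranged from -4.51 to -3.13 over the 12 Notch3-/- mice, whereas WT mice covered -0.53 to 0.60. Notch4 (1449146_at) ranged from -4.31 to -3.42 over the 9 Notch4-/- mice after ozone and stood at -1.97, -1.40 and -3.69 in the 3 after air, with WT mice at -0.38 to 0.58, so that 2 of these air mice were intermediate. A further Notch4 probe set was lower too (-0.74 over exposures, adjusted p = 4.14e-08 by limma), and the last one did not separate the genotypes (-0.23 to 0.16 in Notch4-/- and -0.31 to 0.25 in WT mice). Among the members, 0 probe sets were called with and without those 2 mice. The mean of the lung defining markers ranged from -0.52 to 0.23 over the mice, and skeletal muscle markers stood apart in the Notch3-/- air mouse 3, with a mean of 3.57.

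By the most variable probe set of each gene, the cardiac muscle genes were among the most variable transcripts of the lung, and they varied between mice of the same group. The values that follow are of these probe sets, a choice that was made after the values were seen and that itself raises the spread. By their SD, 1 other probe set each of Myl4, Ryr2, Tnnt2 and Sln lay between the 19.2 and 67.3 percentiles of all probe sets. A further one of Tnnt2 (1418726_a_at) lay at the 99.7 percentile. The within-group SD of the most variable probe set of Myl7 (1449071_at) was 1.30 on the log2 scale, above that of 99.9% of all probe sets, whose median was 0.17. For Myh6 (1448826_at, the fast alpha heavy chain) the highest mouse was 125.5-fold above the lowest, and for Nppa (1456062_at) 166.3-fold. The thin filament genes Tnni3 (1422536_at) and Tnnt2 (1424967_x_at) spanned 68.4-fold and 25.7-fold, and the light chain genes Myl7 and Myl4 (1422580_at) 52.2-fold and 40.4-fold. Of the calcium handling genes, Sln (1420884_at) spanned 93.0-fold, Pln (1460332_at) 59.4-fold and Ryr2 (1450123_at) 15.5-fold. Actc1 (1415927_at), the cardiac actin, spanned the least, 7.7-fold.

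A few mice stood at the ends of most of these scales. Notch3-/- mouse 1 after 6 hr of ozone was among the 3 highest mice for 10 of the 10 genes, and WT mouse 1 after 6 hr for 9. Notch4-/- mouse 3 after 24 hr and Notch3-/- mouse 3 after 48 hr were each among the 3 lowest for 9 genes, and Notch4-/- mouse 2 after 24 hr for 8. In that Notch4-/- group, Tnni3 lay at 0.59, -2.97 and -4.23 in the 3 mice and Myh6 at 1.18, -2.75 and -4.59. Actc1 lay at 0.51, -0.45 and -0.58 in these mice, a far narrower step. In the 2 low mice of this group the myosin, troponin, Sln and Pln signals were all low, whereas mouse 1 lay above the median of all mice in each of the 10 genes.

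**Figure D1:**
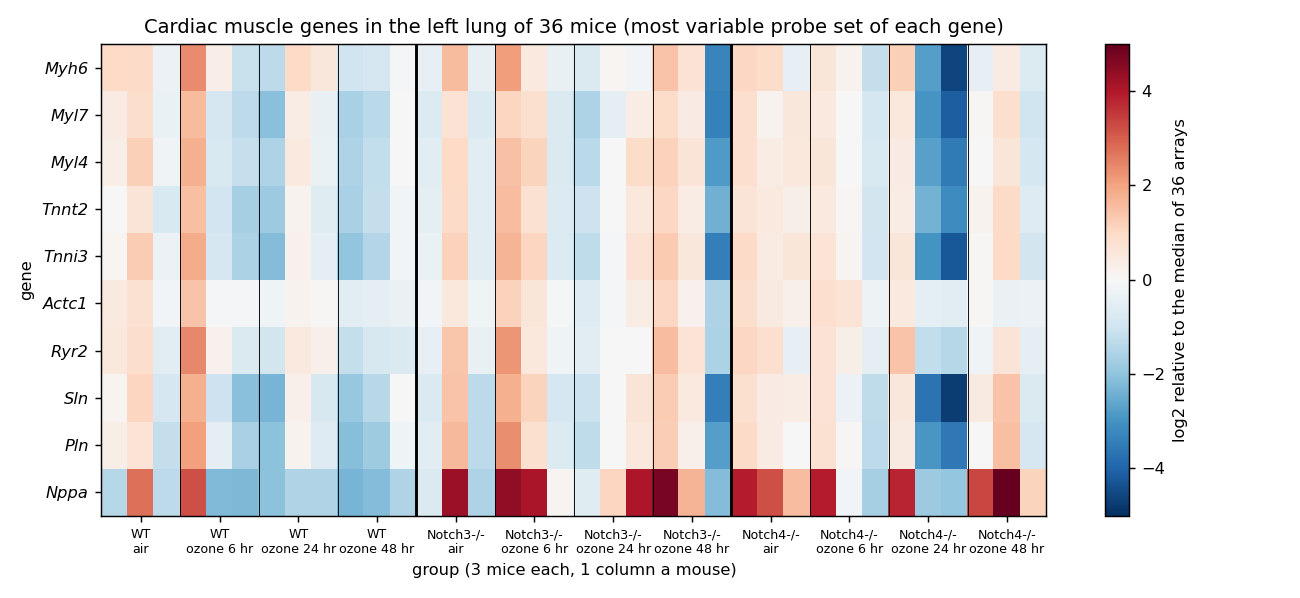
The most variable probe set of each of the 10 genes (rows) in each of the 36 mice (columns, in 12 groups of 3), coloured by log2 signal relative to the median of the 36 arrays. Most columns keep 1 colour from top to bottom, and Nppa (bottom row) is above 0 (red) in 8 of 12 Notch3-/- and 8 of 12 Notch4-/- mice but in 2 of 12 WT mice.

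The members varied together from mouse to mouse. With group means subtracted and 1 representative probe set per gene, chosen by its suffix and number, 29 of the 45 pairs of genes correlated over the 36 mice by Pearson's r and 27 by Spearman's rho, after adjustment over the pairs (permutation test), with a median r of 0.58. With the most variable probe set of each gene all 45 pairs passed, with a median r of 0.94. Myl7 and Tnni3 stood at r = 0.99 (rho 0.99, permutation p = 1e-05 for both, the smallest that 100000 resamples within groups can give), and at r = 0.99 without the 2 mice farthest from the median. The lowest r was 0.81, between Myh6 and Nppa (rho 0.83, permutation p = 1e-05). With the 2 farthest mice left out for each pair, the median r was 0.91 and the lowest 0.76. Tnnt2 and Sln followed the other members most closely, with median r of 0.98 each, and Nppa and Actc1 least, with 0.88 each.

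The representative probe sets included several that varied little. Of the 18 probe sets, those of Tnnt2 (1440424_at), Ryr2 (1421126_at), Sln (1420883_at) and Myl4 (1457126_at) had SDs over the 36 mice of 0.21, 0.16, 0.23 and 0.15, against 0.19 for the median probe set, and a further one of Myh6 (1417729_at) had 0.38. Their r with Myl7 was 0.24, 0.36, 0.62, 0.67 and 0.54. The 3 probe sets of Pln had r with Myl7 between 0.94 and 0.95 and so gave the same picture as each other. Probe sets of a gene can lie in different parts of its transcript, and which of them read the cardiac transcript was not tested.

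Set against all other probe sets of the array, 1.95% correlated positively with Myl7 at an adjusted p under 0.05 (permutation test, adjusted over all 45036). Of the 17 other member probe sets, 13 did so, in all 9 genes, and 0 correlated negatively, against 0.85% of all. Many other genes of cardiac muscle moved along with them, but not all. In the list of other sarcomere and Z-disc genes 25 of 39 probe sets, of 16 genes, correlated positively, among them Csrp3 (a Z-disc protein, r = 0.98, rho 0.98), Tnnc1 (troponin C, r = 0.98, rho 0.97), Actn2 (r = 0.95, rho 0.95) and Ttn (titin, r = 0.89, rho 0.85), each with permutation p = 1e-05 for both measures. Among calcium handling, conduction and channel genes 18 of 42 did, including Casq2 (calsequestrin, which stores calcium, r = 0.96, rho 0.95), Trdn (r = 0.96, rho 0.97) and the pump Atp2a2 (r = 0.91, rho 0.95). The 25 sarcomere probe sets came from 16 of 21 genes measured, and the 18 of this list from 9 of 14. Genes that did not pass included Myh7 (r = -0.50) and Nebl (r = -0.48, 0.33 and -0.24 for its probe sets). Cacna1c (r = -0.49 and -0.46) and Jph2 (r = -0.28 and 0.42) did not pass either. Of the natriuretic, transcription factor and energy genes 14 of 31 did, with Mb (myoglobin) at r = 0.99 and rho 0.98, Tbx20 at r = 0.88 and rho 0.87, and Nppb, the other natriuretic peptide, at r = 0.64 and rho 0.56. The rho of Nppb did not pass (adjusted p = 0.13 by the permutation test). Other cardiac transcription factors of the list did not pass, with r of 0.31 for Nkx2-5, -0.15 and -0.20 for the probe sets of Gata4 and -0.51 and -0.47 for those of Tbx5. Probe sets of a gene also disagreed, since another of Mb had r = -0.35 and another of Tbx20 r = 0.07.

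Lists of other tissues held such probe sets too. Of the ventricle list 3 of 6 passed, all of Myl3, a light chain shared with slow skeletal muscle (highest r = 0.92, rho 0.89), whereas Myl2, the ventricular light chain, had r = -0.26 and Irx4, a ventricular transcription factor, r = 0.23, with adjusted p of 0.68 and 0.72 by the permutation test. Of the skeletal muscle list 3 of 23 probe sets passed, those of Eno3, Ckm and Myl1. Acta1 had r of 0.07, and the fast fibre genes Myh4 and Mylpf had -0.04 and -0.04. In the Notch3-/- air mouse 3, in which the skeletal list stood at 3.57, the 6 contractile members (Myh6, Myl4, Myl7, Tnnt2, Tnni3 and Actc1) had a mean of -0.50. Of the smooth muscle list 2 of 18 passed, Acta2 (r = 0.58) and Synpo2 (r = 0.54), both near the threshold (adjusted p = 0.048 each by the permutation test). Of the adipose list 3 of 6 passed, among them Adipoq, the hormone of fat cells (r = 0.76, rho 0.75), and Cidea, a marker of brown fat (r = 0.65, rho 0.70), while Ucp1, also of brown fat, had r = 0.19. Of the 10 lung defining probe sets 0 correlated positively and 2 negatively, those of Ager, the marker of type 1 cells (r = -0.50, rho -0.60), and of the surfactant gene Sftpb (r = -0.44, rho -0.56). The correlation with Myl7 was chosen after the data were seen. Less cardiac muscle in a sample, whether of vein or of atrium, and less RNA per muscle cell cannot be told apart in RNA of whole lung.

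**Figure D2:**
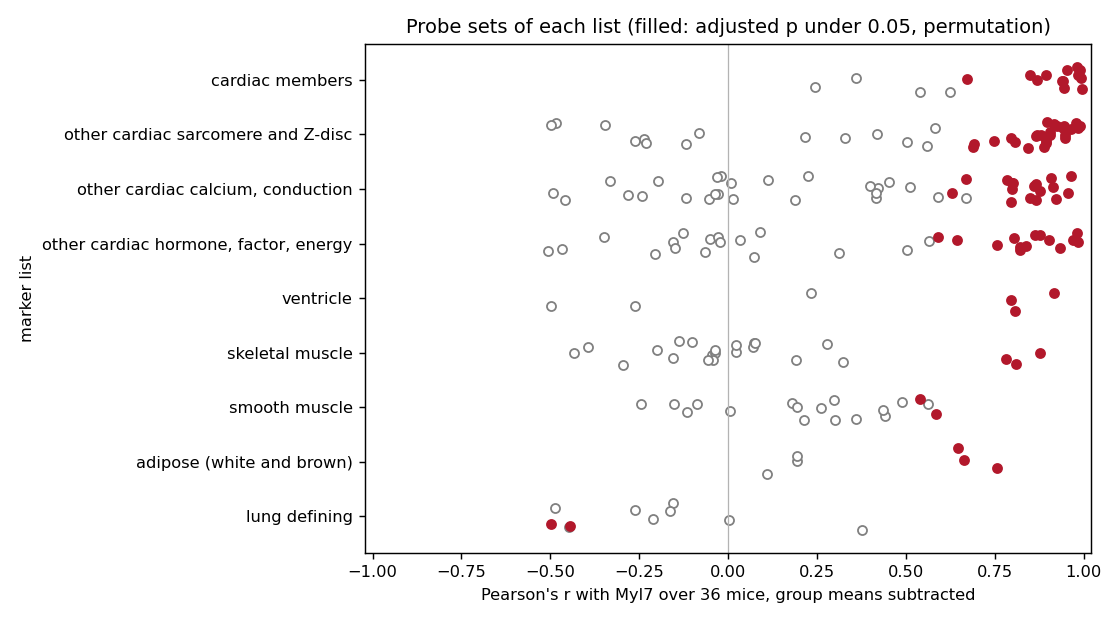
Pearson's r with Myl7 over the 36 mice, after subtracting group means, for each probe set of the marker lists, with 1 point a probe set and filled points for adjusted p under 0.05 by the permutation test. The 3 cardiac lists beside the members hold many points above 0.75, whereas most of the skeletal muscle, smooth muscle and lung points lie between -0.5 and 0.6.

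Over all genes, the 15 non-member genes most like the mean of the 10 representative probe sets had r of 0.94 to 0.98 over the 36 mice, with group means left in. They began with Mybphl (r = 0.98), Csrp3 (r = 0.98), Casq2 (r = 0.97), Myoz2 (r = 0.97) and Smpx (r = 0.97), all proteins of striated muscle. They went on with Ckmt2, Tmem182, Fabp3, Cox7a1, Trim63, Hamp, Pgam2, Txlnb, Lmod2 and Mylk3. Of the 15, 9 were already in the marker lists and 11 were shared with the 15 found from the most variable probe sets. These r values are a description.

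Ozone was not accompanied by a change of any member that passed the test. By limma, 0 of the 18 probe sets were called in any of the 9 comparisons with air within a genotype, where 0%, 0.104% and 1.89% of all probe sets were called in WT mice at 6 hr, 24 hr and 48 hr. The background was 0.16%, 2.72% and 2.46% in Notch3-/- mice and 0.00666%, 1.39% and 1.75% in Notch4-/- mice. Tukey's test, which the methods name, also called 0. At an unadjusted p under 0.05 there were 1, 0 and 0 of 18 in WT, 0, 0 and 1 in Notch3-/- and 0, 11 and 0 in Notch4-/- mice. No share of all probe sets at an unadjusted p was taken, for these counts or those below. Several of the 18 probe sets are of the same gene and the genes varied together, so such counts are not of independent results. The median SE of a difference was 0.89 for the members against 0.14 for all probe sets. A difference in a member thus had to be several times larger than in a typical transcript to pass.

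The largest differences were in Notch4-/- mice after 24 hr. Their median over the 18 probe sets was -2.18, against 0.02 over all probe sets. Myl7 lay at 0.52, -2.93 and -4.11 in the 3 exposed mice and at 0.84, 0.19 and 0.58 in the 3 air mice. For Myl7 the groups thus overlapped through exposed mouse 1. Its difference was -2.71 (SE 0.99, 95% confidence interval -4.73 to -0.69), with an adjusted p of 0.152 by limma, the lowest of the members. Sln, the inhibitor of the calcium pump, differed by -3.15 (SE 1.17, adjusted p = 0.16 by limma), Tnni3 by -2.86 (SE 1.07) and Actc1 by -0.70 (SE 0.46). Single mice moved these values. Without Notch4-/- mouse 3 after 24 hr Myl7 differed by -1.74, Myh6 by -1.30 and Ryr2 by -0.38, and 0 members passed. Without mouse 1 of that group 6 of the 18 probe sets passed, those of Tnnt2, Sln, Tnni3, Myl4, Myh6 and Myl7, with Myl7 at -4.06 (adjusted p = 0.0317), where 1.58% of all probe sets did. Weighting the arrays by their quality called 9, all in this comparison, where it called 8.37% of all probe sets. Beside this, the mean of the smooth muscle list in the 3 exposed mice was 0.15, 0.11 and 0.10 and that of the adipose list 0.38, -0.56 and -0.70. The part of these cells in the result was not tested.

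In WT mice the values of Myl7 were 0.41, 0.90 and -0.35 in air, 1.59, -0.86 and -1.30 after 6 hr, -2.08, 0.39 and -0.39 after 24 hr and -1.62, -1.33 and 0.04 after 48 hr. In Notch3-/- mice they were -0.70, 0.71 and -0.72 in air, 1.07, 0.81 and -0.72 after 6 hr, -1.55, -0.45 and 0.35 after 24 hr and 0.91, 0.41 and -3.36 after 48 hr. In Notch4-/- mice after 6 hr they were 0.48, -0.04 and -0.89, and after 48 hr 0.06, 0.84 and -0.99. For Myl7 each ozone group overlapped with the air group of its genotype. Over the 18 probe sets and 9 comparisons, 12 of 162 pairs of groups did not overlap, against 18.1% over all probe sets. Among them, in WT mice after 48 hr, were Ryr2 (-1.18 to -0.71, against -0.54 to 0.89 in air), Actc1 (-0.51 to -0.35, against -0.15 to 0.74) and Nppa. In Notch4-/- mice after 24 hr they were Tnnt2 (1418726_a_at, -3.27 to 0.28, against 0.35 to 0.66 in air), Sln (1420883_at) and Pln (1423359_at, -2.73 to -0.03, against 0.10 to 0.84). All 12 were lower after ozone, and the direction was not counted over all probe sets. Averaged over the 3 genotypes, 0 of 18 probe sets passed at 6 hr, 24 hr and 48 hr, where 2.9%, 5.29% and 10.7% of all probe sets did. At an unadjusted p under 0.05 there were 1, 7 and 1 of 18, with no share of all probe sets to set beside them. At 24 hr Tnni3 differed by -1.44 (SE 0.62, adjusted p = 0.177 by limma) and Myl7 by -1.35 (SE 0.57). Without Notch4-/- mouse 1 after 24 hr Tnni3 and Myl7 passed (-1.90 and -1.79, adjusted p = 0.0436 and 0.0354), where 6.48% of all probe sets did, and with array weights 3 probe sets passed, against 15.8% of all.

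**Figure D3:**
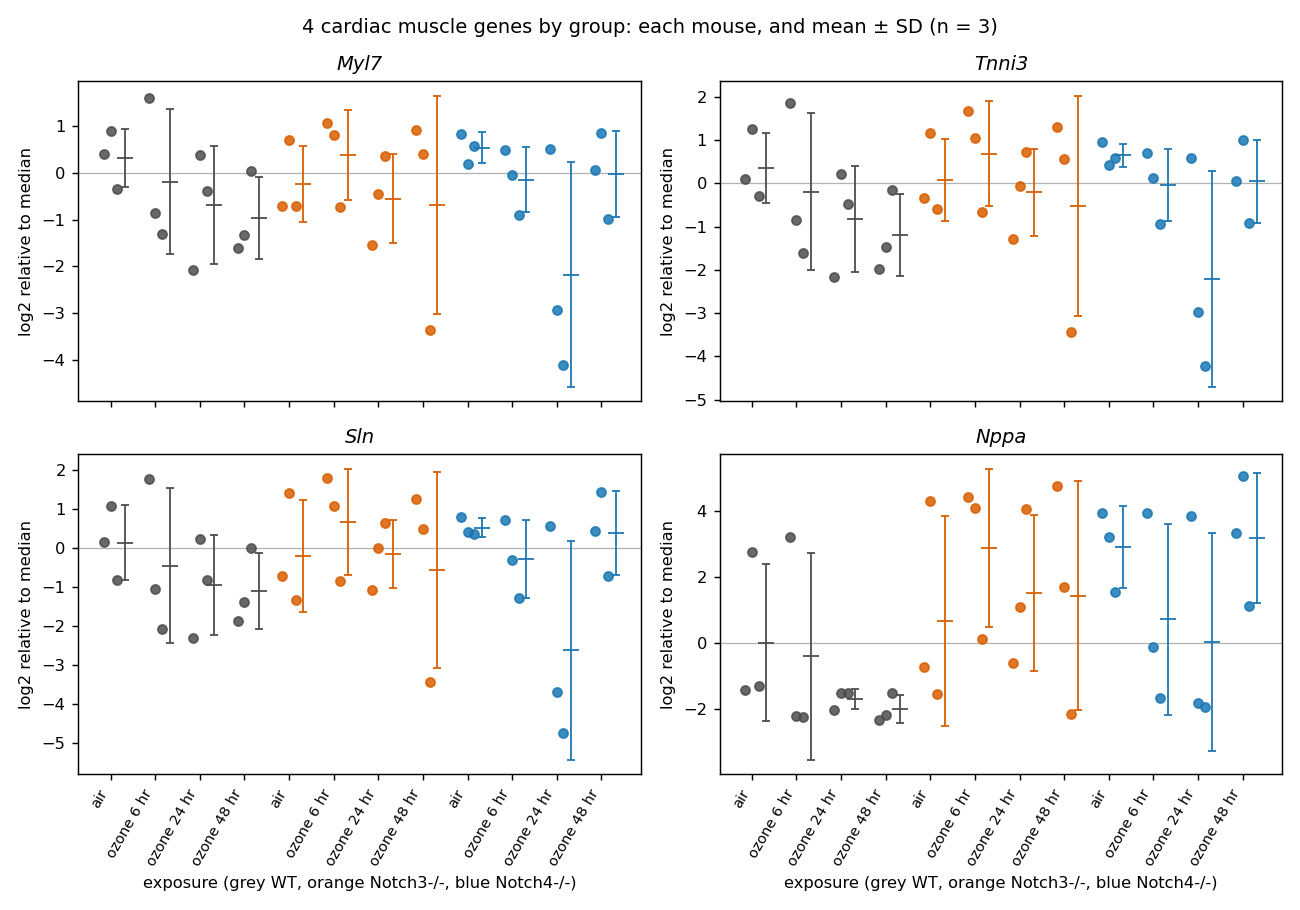
Myl7, Tnni3, Sln and Nppa in each mouse (points) with the mean ± SD of each group of 3 mice, as log2 signal relative to the median of the 36 arrays, by exposure for WT (grey), Notch3-/- (orange) and Notch4-/- (blue). Myl7, Tnni3 and Sln share their 3 lowest mice (2 of Notch4-/- at 24 hr and 1 of Notch3-/- at 48 hr), and Nppa is below -1.2 in 10 of 12 WT mice.

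The mean of the 6 contractile genes ordered the groups from Notch3-/- after 6 hr (0.58 ± 1.04, SD, n = 3), Notch4-/- in air (0.55 ± 0.28) and WT in air (0.33 ± 0.64) down to WT after 24 hr (-0.44 ± 0.99), WT after 48 hr (-0.86 ± 0.67) and Notch4-/- after 24 hr (-1.71 ± 2.06). The other 6 groups lay between 0.03 and -0.39. The 11 steps between neighbours in this order ran from 0.01 to 0.85, and 0 of them exceeded the larger SD of the neighbours. A test for any difference among the 12 groups called 0 of the 18 member probe sets, where it called 19.2% of all probe sets, and the members' adjusted p lay between 0.232 and 0.99 by limma. At an unadjusted p under 0.05 it found 0.

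The response to ozone did not differ by genotype in any member that could be called. Over the 6 comparisons of a knockout response with that of WT, 0 of the 108 tests passed and 0 had an unadjusted p under 0.05, with a lowest adjusted p of 0.756 by limma. The background was 0.00888%, 0.00444% and 0.00222% for Notch3-/- at 6 hr, 24 hr and 48 hr, and 0%, 0% and 0.00222% for Notch4-/-. With a median SE of 1.26 for the members, such differences were measured loosely.

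In air the knockout lines and WT gave 0 calls among the 18 probe sets, against a background of 0.486% for Notch3-/- and 0.482% for Notch4-/-, and 0 had an unadjusted p under 0.05. Averaged over the exposures, 0 of 18 passed for either line, against 5.68% and 5.76% of all probe sets, and in each line 1 probe set, that of Nppa, had an unadjusted p under 0.05. The most variable probe sets of the other 9 genes differed by -0.04 to 0.59 for Notch3-/- and by -0.61 to 0.24 for Notch4-/-. Myl7 differed by 0.11 (SE 0.49, 95% confidence interval -0.90 to 1.12) for Notch3-/- and by -0.07 (SE 0.49, -1.08 to 0.94) for Notch4-/-, and Tnni3 by 0.48 and 0.08 (SE 0.54 each).

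Nppa was the exception among the members. In WT mice it lay at -1.42, 2.74 and -1.30 in air, 3.21, -2.19 and -2.23 after 6 hr, -2.03, -1.50 and -1.51 after 24 hr and -2.32, -2.16 and -1.52 after 48 hr. In Notch3-/- mice it lay at -0.73, 4.29 and -1.55 in air, 4.43, 4.08 and 0.12 after 6 hr, -0.60, 1.08 and 4.05 after 24 hr and 4.76, 1.70 and -2.16 after 48 hr. In Notch4-/- mice it lay at 3.94, 3.22 and 1.54 in air, 3.92, -0.12 and -1.66 after 6 hr, 3.82, -1.82 and -1.92 after 24 hr and 3.33, 5.06 and 1.12 after 48 hr. Nppa was thus above its median over all mice in 2 of 12 WT, 8 of 12 Notch3-/- and 8 of 12 Notch4-/- mice, and the genotypes overlapped at both ends.

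On the average over exposures Nppa differed from WT by 2.64 (SE 0.94, 95% confidence interval 0.73 to 4.56) in Notch3-/- and by 2.72 (SE 0.94, 0.81 to 4.64) in Notch4-/- mice. Neither passed by limma, with adjusted p of 0.107 and 0.0872. Both calls turned on single mice. Without WT mouse 1 after 6 hr, in which Nppa was high, the differences were 3.09 and 3.17 and both passed (adjusted p = 0.0449 and 0.0396), where 5.13% and 5% of all probe sets did. Without Notch3-/- mouse 3 after 48 hr, in which the contractile genes were low, that of Notch3-/- was 3.09 and passed (adjusted p = 0.043), where 5.52% did. The mouse with the highest Nppa, Notch4-/- mouse 2 after 48 hr, also had the highest adipose mean (3.21). Without that mouse the difference in Notch4-/- was 2.49 (adjusted p = 0.162 by limma). Without the 2 Notch4-/- air mice of intermediate Notch4 signal, which leaves 1 mouse in that group, it was 2.38. The 1 call for Notch4-/- under repeated quantile normalization (2.80, adjusted p = 0.0482) and under array weights (2.83, adjusted p = 0.0391) was also Nppa, where 5.79% and 8.95% of all probe sets were called.

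**Figure D4:**
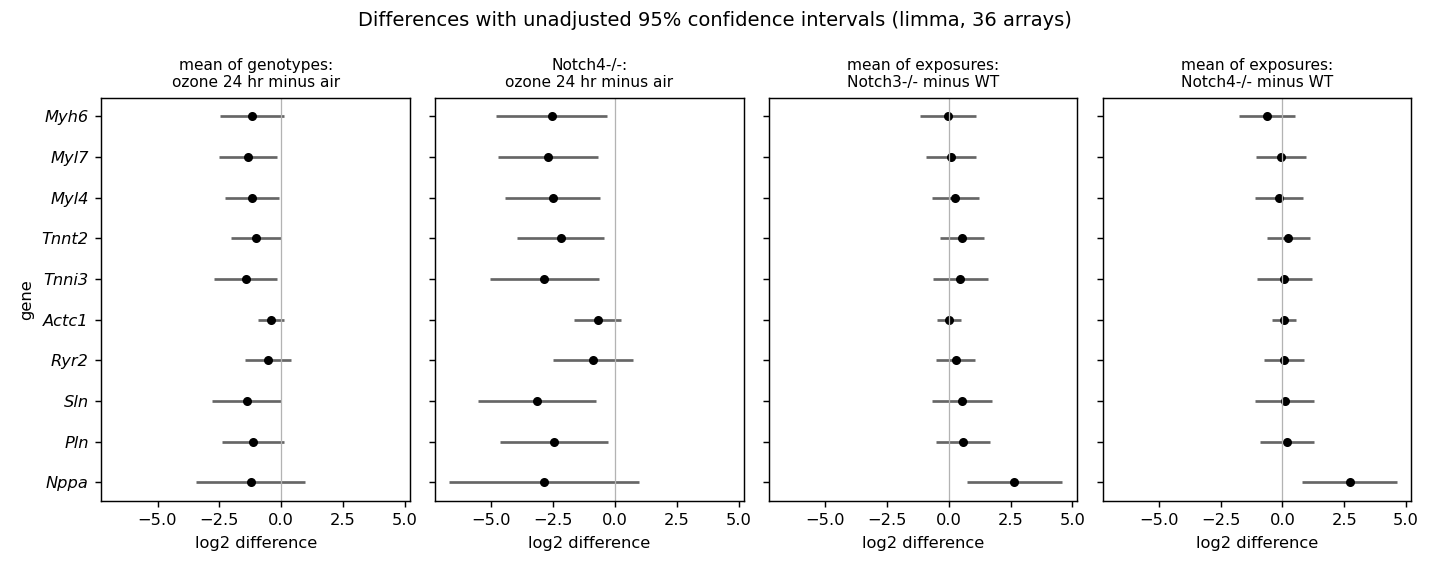
Log2 differences of the 10 genes (most variable probe set) in the 24 hr comparisons with air, as the mean of the genotypes and in Notch4-/- mice, and between each knockout line and WT over all exposures. Points are limma estimates and bars unadjusted 95% confidence intervals, and Nppa, at 2.64 and 2.72, stands to the right of the other members in both comparisons with WT.

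Nppa and the contractile genes were next set against each other in each mouse, a step chosen after the data were seen. The mean of the 6 contractile genes was above 0 in 4 of 12 WT, 6 of 12 Notch3-/- and 7 of 12 Notch4-/- mice, and of these Nppa was above 0 in 2, 6 and 6. Of the mice with a contractile mean below 0, Nppa was above 0 in 0 WT, 2 Notch3-/- and 2 Notch4-/- mice. At a like contractile level, WT air mouse 1 (contractile mean 0.39) had Nppa at -1.42 and Notch4-/- air mouse 2 (0.47) had it at 3.22. The latter is 1 of the 2 Notch4-/- air mice of intermediate Notch4 signal. Other mice were less far apart. Notch4-/- air mouse 3 (0.31) had Nppa at 1.54, and Notch4-/- mouse 2 after 6 hr (0.17) had it at -0.12. WT air mouse 2 (0.95) had Nppa at 2.74, within the range of the knockout mice. Nppa minus the contractile mean had a median of -1.08 in WT (from -1.91 to 1.79), 1.20 in Notch3-/- (from -1.05 to 3.61) and 2.30 in Notch4-/- mice (from -0.84 to 4.47).

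With the contractile mean as a covariate in limma, Nppa was higher than in WT by 2.22 in Notch3-/- (SE 0.46, adjusted p = 0.00199) and by 2.86 in Notch4-/- mice (SE 0.46, adjusted p = 0.000113), where 5.99% and 6.82% of all probe sets were called. Leaving out each mouse in turn gave 2.00 to 2.43 and 2.59 to 3.08, with a highest adjusted p of 0.00891 and 0.00036. Both remained past the threshold in every such fit. The fit with the covariate was not run without both Notch4-/- air mice of intermediate Notch4 signal. The fit takes a straight line with the same slope in every group, and the low values of Nppa, between -2.32 and -1.30 in 10 WT mice, changed little while the contractile mean of these mice ran from -1.52 to 0.41. Whether the low Nppa values lie at background cannot be read from centred values.

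**Figure D5:**
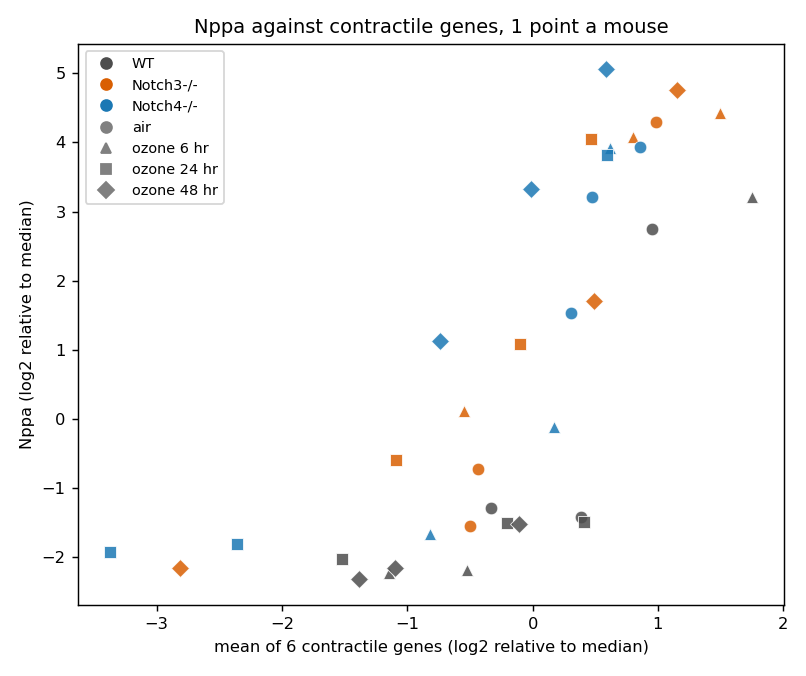
Nppa against the mean of the 6 contractile genes, both as log2 signal relative to the median of the 36 arrays, 1 point a mouse, coloured by genotype and shaped by exposure. WT mice with contractile means of 0.39 and 0.41 lie at -1.42 and -1.50 on the Nppa axis. The 6 knockout mice with contractile means from 0.46 to 0.62 lie from 1.70 to 5.06. Below them, Notch4-/- mice with contractile means of 0.31 and 0.17 lie at 1.54 and -0.12. WT mice with contractile means of 0.95 and 1.75 lie at 2.74 and 3.21, within the range of the knockout mice.

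Among the other members outside that mean, Sln (1420884_at) was called with the covariate. It was higher at 48 hr than in air by 0.39 as the mean of the genotypes (SE 0.10, adjusted p = 0.00775), where 11.1% of all probe sets were called, and by 0.65 in Notch4-/- mice (SE 0.16, adjusted p = 0.0343), where 1.96% were. In WT mice the difference was 0.34 and in Notch3-/- mice 0.18 (SE 0.17 and 0.16), and neither passed, where 1.91% and 2.87% of all probe sets did. Whether the lines differed in this was tested by the response difference, which was 0.31 for Notch4-/- (SE 0.23, adjusted p = 1). The other probe set of Sln (1420883_at) stood at -0.06 as the mean of the genotypes (adjusted p = 0.71) and 0.09 in Notch4-/- mice (adjusted p = 0.827), so the probe sets of Sln disagreed. The test for any difference among the 12 groups with the covariate called 18.7% of all probe sets and, among the members outside the mean, Sln (adjusted p = 0.00285) and Nppa (adjusted p = 0.00387). In the fit without the covariate the same Sln probe set was not called.

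Of the related cardiac genes, a few passed tests that the members did not. Myh7, the slow beta heavy chain of the ventricle and of slow skeletal fibres, was different from WT by -0.86 in Notch3-/- (SE 0.14, adjusted p = 0.000178) and by -1.13 in Notch4-/- mice (SE 0.14, adjusted p = 4.42e-06), lower in both lines, as the 1 called of 39 probe sets of other sarcomere genes. It was above 0 in 11 of 12 WT, 5 of 12 Notch3-/- and 2 of 12 Notch4-/- mice, and it had r = -0.50 with Myl7 (rho -0.49, adjusted p = 0.075 by the permutation test). Of the calcium handling, conduction and channel genes 0 of 42 passed for either line, and of the natriuretic, transcription factor and energy genes 0 of 31, beside the 5.68% and 5.76% of all probe sets called. With ozone, 8 of the 42 were higher at 24 hr as the mean of the genotypes, where 5.29% of all probe sets were called in either direction, 6 of them of Gja1 (a gap junction connexin of heart and many other cells), 1 of Gja5 (another connexin, of atrium and arteries, 0.42) and 1 of Atp2a2 (0.38). The called probe set of Atp2a2 had r = -0.02 with Myl7 and is not the one that correlated with it. The 6 probe sets of Gja1 were higher at 48 hr too, by 0.44 to 0.81, with r between -0.24 and 0.01 with Myl7. At 48 hr both probe sets of Ankrd1, a stress-responsive protein of muscle and vessel, were higher (0.76 and 0.77, adjusted p = 0.032 and 0.0169), where 10.7% of all probe sets were called. Unlike those of Gja1, they correlated with Myl7 (r = 0.69 and 0.75, adjusted p = 0.047 and 0.0071 by the permutation test). Of Mef2c, a muscle and vessel transcription factor, 1 of 5 probe sets was lower (-0.28, adjusted p = 0.0152 by limma). So were the endothelial marker Pecam1 (-0.42, adjusted p = 0.0276) and 1 probe set of the endothelial marker Cdh5 (-0.32, adjusted p = 0.0108). Another probe set of Cdh5 was not called, and the part of endothelial cells was not tested.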

How the data were processed

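The members and marker lists were chosen with earlier results of these data known. The authors ran RMA (GeneSpring GX). What they deposited is on the log2 scale and centred: the median of every probe set is within 5e-07 of 0, a step seen in the values and not described. Mice were grouped by the genotype and exposure in their labels. Probe sets (45037, without 64 controls) were fitted by limma 3.58.1 under R 4.3.3 with 1 mean per group, and p-values were adjusted by Benjamini-Hochberg within each comparison, with calls at an adjusted p under 0.05. Correlations (Python 3.11.15) used 100000 resamples within groups. The text names all members, the 15 genes most like their mean, Notch3 and Notch4, and genes of each marker list. Up to 4 genes of each list in listed order were planned, and the genes named do not keep to that order. Those outside it were chosen after values were seen, among them Csrp3, Tnnc1, Actn2, Ttn, Synpo2, Gja1, Gja5, Ankrd1 and Mef2c. The contractile mean was also chosen after values were seen. The steps were tested on simulated data. Mice were caged singly, air and ozone were given in different chambers, and the labels name no exposure run for the mice, so runs could not be taken into account and chamber and exposure cannot be told apart. The number of mice sets the precision. Replicate numbers were not used to pair the mice in the main fit: every same-number correlation exceeded 0.1 in 1 of 11 comparisons (range -0.42 to 0.52). That check cannot exclude exposure runs shared by mice of the same number. Alternatives changed the normalization, filter, weights, prior, arrays fitted, adjustment and test, added the replicate block, and left out each mouse.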

Additional observations from a re-analysis of the deposited data

How the results depend on the processing

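Of 321 values for counts of calls and correlations under the alternatives, 308 stayed as reported, and of 1047 values for single genes 1015 kept direction and side of the threshold, 24 passed where they had not, and 8 changed sign. The count of members called was 0 for ozone within a genotype and became 9 with array weights (all Notch4-/- at 24 hr) and 1 with the contractile mean as a covariate, which was chosen after seeing the data. For ozone as the mean of genotypes it became 3 and 1, and for knockout against WT over exposures 1 and 2, with 1 also after a repeated quantile normalization. The test over 12 groups gave 2 with the covariate. Leaving out each mouse gave 0 to 6 calls for ozone within a genotype and 0 to 2 for the mean of genotypes, both highest without Notch4-/- mouse 1 after 24 hr. It gave 0 to 2 for knockout against WT, highest without WT mouse 1 after 6 hr, and 0 for the other families. The correlated pairs numbered 29 of 45, 45 with the most variable probe sets, and 23 to 35 without single mice, lowest without WT mouse 1 after 6 hr and highest without Notch3-/- mouse 1 after 48 hr. In Notch4-/- mice at 24 hr the difference of Ryr2 was 0.019 without the 2 air mice of intermediate Notch4 signal. With the covariate it was 0.99, that of Nppa 1.33 and that of Pln 0.18, and as the mean of genotypes Sln stood at 0.043, Ryr2 at 0.37, Nppa at 0.80 and Pln at 0.16. These values differ in sign from those without the covariate, which by construction removes what is shared with the contractile genes. The cause of the other differences was not tested.

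With the replicate block, 0 members were called in every family, and Nppa against WT had adjusted p of 0.0641 (Notch3-/-) and 0.0533 (Notch4-/-) by limma. Tukey's test could not be applied to means of groups or to response differences, the fit of the compared genotypes alone not to the mean of genotypes or the test over 12 groups, and the adjustment over a family not to the latter. With centred values, distance from background could not be measured, and the members' large spread limits what 3 mice a group can show.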
